A study of Mus musculus with 26 samples.

Results

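Dab1, Cdh4, Epha4 and Erc1 are 4 long mouse genes of neuronal guidance, adhesion and synaptic scaffolding in which peaks of RNA 5-hydroxymethylcytosine (5hmC) were listed. The genes were chosen by their peaks in these same lists, so every count and value below is a description and no test was run. A peak was taken as a member when the midpoint of its interval lay within the annotated span of a gene, and intervals that overlapped were merged into regions. This gave 131 of the 56538 peaks, in 48 of the 23367 regions of the whole series.

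The peaks come from hMeRIP-seq, in which fragmented total RNA is precipitated with an anti-5hmC antibody and sequenced beside an input. The 13 IP libraries fall into 5 groups. WT ESC are wild-type mouse embryonic stem cells grown with serum and leukaemia inhibitory factor (LIF), TKO ESC carry knock-outs of Tet1, Tet2 and Tet3, and WT EB are embryoid bodies that formed from WT ESC over 4 days without LIF, with 3 replicates each. Tet2-KI ESC and Tet2deltaRBD-KI ESC, with 2 replicates each, are mouse ESC that carry a triple Flag, HA and Twin-Strep tag on endogenous Tet2. The tagged Tet2 keeps its RNA-binding domain (RBD) in the former and lacks it in the latter, and both were picked as clones after editing. The study describes its replicates as independent experiments, the labels do not give their cultures, and whether TKO ESC, made in earlier work, are 1 clone is not given in the sources used here.

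Tet enzymes oxidise 5-methylcytosine, and 5hmC is the first product of that reaction in DNA and in RNA. Dab1 encodes the cytoplasmic adaptor that is phosphorylated when Reelin binds its receptors, which guides the layering of neurons. Cdh4 encodes R-cadherin, a classical cadherin of calcium-dependent cell adhesion in the nervous system and kidney. Epha4 encodes a receptor tyrosine kinase for ephrins that repels growing axons. Erc1 encodes ELKS, a scaffold of the presynaptic active zone that is also made outside neurons, where it helps to capture vesicles at the cell cortex.

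Listed peaks say where an IP exceeded its input at the threshold of the peak caller, and a region without a peak was not shown to lack 5hmC. The shortest list (WT EB replicate 1) had 498 peaks and the longest (Tet2-KI ESC replicate 1) had 10383, and the read depth behind them is unknown. They hold no expression levels, so the labelled cell types could not be checked against markers, and more RNA of a gene, more cells that express it and more 5hmC per molecule cannot be told apart. A peak in Tet1 was listed in all 3 TKO ESC libraries and no peak in Tet2 or Tet3 was. In WT ESC a peak in Tet2 was listed in replicate 2 only and none in Tet3, so the lists give no check of the knock-out. In the first 3 groups replicate 1 had the shortest list and another description prefix (1608 or 1610) than replicates 2 and 3 (1703), and values for the 1703 libraries alone are therefore given beside the counts. Fold enrichment was listed for 9 libraries, and the lists of the 4 knock-in libraries hold positions only. This value sets the IP signal against a background that the authors' peak caller estimated with the input. It is not taken here as a ratio to the input at the same site. In WT ESC replicate 2, 23 of the 24 member peaks had a value that other peaks of the list share. List medians ran from 5.43 (WT EB replicate 1) to 7.28 (TKO ESC replicate 2), and the values were not rescaled.

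Of the 48 regions, 9 had a peak in every replicate of at least 1 group and are called replicated below. Their sequences are shown because the results turn on these regions. Each line gives the 200 bases around the midpoint of a region, 5′ to 3′ on the strand of the gene, in the mm9 build (NCBIM37). In Dab1, capitals mark the perfect AG repeat of region 9 and the exact copies of the commonest 15-nt unit of region 12, while regions 5 and 13 hold no such repeat and have no capitals.
Dab1 region 5 (chr4:104077386-104077585, + strand): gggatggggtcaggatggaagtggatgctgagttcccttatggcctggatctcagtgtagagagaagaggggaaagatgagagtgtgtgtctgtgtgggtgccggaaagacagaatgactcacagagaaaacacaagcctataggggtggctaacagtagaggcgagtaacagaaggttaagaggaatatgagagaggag
Dab1 region 9 (chr4:104179262-104179461, + strand): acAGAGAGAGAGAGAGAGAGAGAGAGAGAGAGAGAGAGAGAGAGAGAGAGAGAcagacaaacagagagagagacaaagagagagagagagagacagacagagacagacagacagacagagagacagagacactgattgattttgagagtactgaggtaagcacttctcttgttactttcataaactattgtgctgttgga
Dab1 region 12 (chr4:104321445-104321644, + strand): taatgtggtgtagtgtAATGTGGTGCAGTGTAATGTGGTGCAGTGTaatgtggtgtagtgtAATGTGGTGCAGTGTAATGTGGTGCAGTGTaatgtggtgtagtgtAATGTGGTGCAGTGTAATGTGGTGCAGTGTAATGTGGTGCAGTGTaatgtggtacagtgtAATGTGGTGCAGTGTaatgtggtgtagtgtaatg
Dab1 region 13 (chr4:104402521-104402720, + strand): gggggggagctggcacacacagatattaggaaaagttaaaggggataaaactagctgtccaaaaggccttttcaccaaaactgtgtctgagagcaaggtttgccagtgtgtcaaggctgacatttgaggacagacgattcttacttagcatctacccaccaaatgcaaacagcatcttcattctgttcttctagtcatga

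The 2 replicated Cdh4 regions almost adjoin each other and are both rich in the triplets GAT and GGT, which are in capitals (read from the left, without overlap). The midpoint of region 3 is moved downstream by 1 outlying peak of TKO ESC replicate 2, so that 5 of its 10 peaks have their midpoints in the window around it. A second window is therefore given, centred on the median of the peak midpoints after the data had been seen, which holds 9 of the 10.
Cdh4 region 2 (chr2:179240733-179240932, + strand): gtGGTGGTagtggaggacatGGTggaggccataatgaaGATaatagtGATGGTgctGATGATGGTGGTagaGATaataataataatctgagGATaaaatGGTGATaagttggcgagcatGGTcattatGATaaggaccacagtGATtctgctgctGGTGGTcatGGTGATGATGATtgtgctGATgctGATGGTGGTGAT
Cdh4 region 3 (chr2:179241084-179241283, + strand): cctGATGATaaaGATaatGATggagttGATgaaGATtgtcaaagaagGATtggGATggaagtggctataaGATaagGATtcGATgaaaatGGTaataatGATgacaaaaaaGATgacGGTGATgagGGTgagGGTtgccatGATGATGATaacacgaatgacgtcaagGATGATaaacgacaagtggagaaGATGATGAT
Cdh4 region 3, around the peaks (chr2:179240993-179241192, + strand): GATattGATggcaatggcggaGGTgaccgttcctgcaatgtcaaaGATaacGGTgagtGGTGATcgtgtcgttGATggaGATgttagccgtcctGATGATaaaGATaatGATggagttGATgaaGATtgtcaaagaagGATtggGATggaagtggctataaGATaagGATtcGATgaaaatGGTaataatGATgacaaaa

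Epha4 and Erc1 are read from the minus strand. Capitals in region 8 of Erc1 mark the 136 bases of exon 13, and the windows of Epha4 region 3 and Erc1 region 3 lie in introns and hold no repeat of the kinds searched. The Epha4 window does hold the unit gggatgagctctta in tandem, which is longer than the units of the perfect repeats counted.
Epha4 region 3 (chr1:77464749-77464948, - strand): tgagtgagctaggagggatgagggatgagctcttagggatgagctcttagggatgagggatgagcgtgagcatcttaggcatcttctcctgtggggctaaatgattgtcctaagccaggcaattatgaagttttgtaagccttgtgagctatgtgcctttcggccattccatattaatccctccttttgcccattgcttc
Erc1 region 3 (chr6:119712874-119713073, - strand): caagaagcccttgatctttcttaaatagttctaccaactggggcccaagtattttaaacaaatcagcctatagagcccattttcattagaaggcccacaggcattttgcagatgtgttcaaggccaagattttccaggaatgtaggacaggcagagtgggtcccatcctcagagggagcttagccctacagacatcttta
Erc1 region 8 (chr6:119672159-119672358, - strand): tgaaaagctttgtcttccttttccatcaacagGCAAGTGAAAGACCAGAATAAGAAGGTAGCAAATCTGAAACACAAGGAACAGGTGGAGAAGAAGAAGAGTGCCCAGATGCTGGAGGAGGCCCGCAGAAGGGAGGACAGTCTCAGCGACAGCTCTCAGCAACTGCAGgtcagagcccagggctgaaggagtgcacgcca

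The 4 genes differed in how their regions were spread along them. Dab1 (ENSMUSG00000028519.9, chr4:103291964-104417449, plus strand, 1125 kb) had 44 peaks in 13 regions, Cdh4 (ENSMUSG00000000305.6, chr2:179177136-179634078, plus strand, 457 kb) had 42 peaks in 17 regions, Epha4 (ENSMUSG00000026235.7, chr1:77363760-77511663, minus strand, 148 kb) had 9 peaks in 4 regions, and Erc1 (ENSMUSG00000030172.7, chr6:119520822-119798168, minus strand, 277 kb) had 36 peaks in 14 regions. Per 100 kb of gene this was 1.16 regions in Dab1, 3.72 in Cdh4, 2.70 in Epha4 and 5.05 in Erc1. The median over the 2401 coding genes of at least 100 kb was 0.666 regions per 100 kb, and 1.41 over the 1616 of them with at least 1 region. All 4 genes had been picked for holding peaks, so that order among long genes is no result.

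In Dab1 the first 748 kb, 66.4% of the annotated span, held 0 peaks. That stretch carries the 5′ exons of the long transcript Dab1-002 only, together with a non-coding transcript, and ends where the shorter coding transcripts begin. The 13 regions lay in the remaining 378 kb, at 3.44 regions per 100 kb, from 750 to 1111 kb after the annotated start. With Dab1-202 as the reference transcript, 6 regions were in intron 1, 1 was in exon 2, 4 were in intron 2, 1 was in intron 4 and 1 was in intron 14. In Cdh4 all 17 regions were in intron 2 of Cdh4-001, which is 335 kb long (chr2:179179517-179514958), and the exons and the other introns held none.

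**Figure D1:**
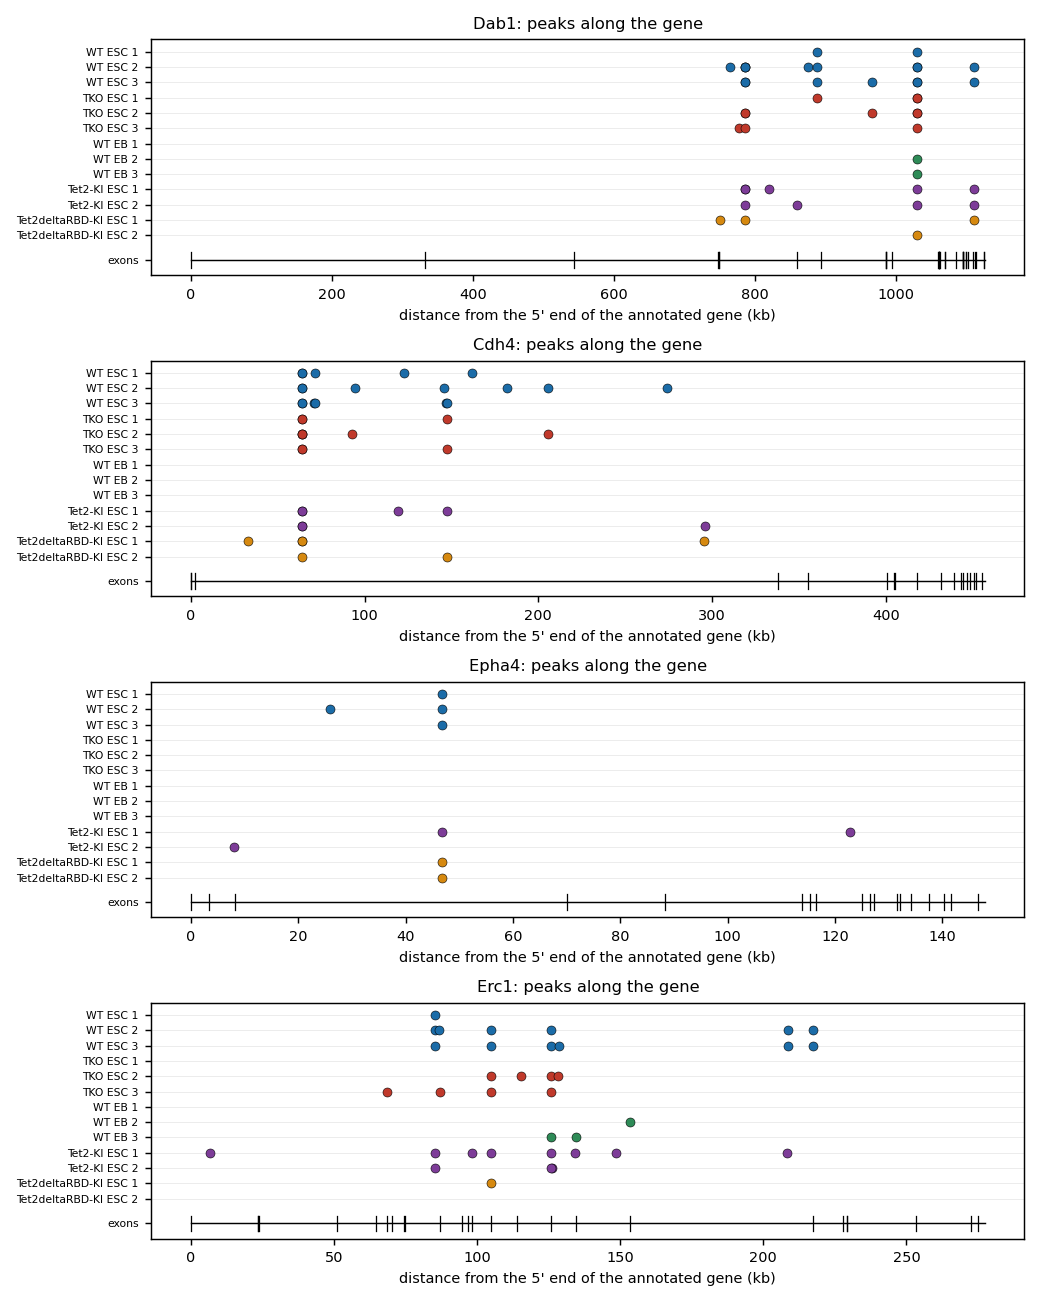
Each point is 1 listed peak, plotted by its distance in kb from the annotated 5′ end of the gene, with 1 row for each IP library coloured by group and the exons of coding transcripts as ticks on the lowest line of each panel. Dab1 is empty over its first 748 kb, the Cdh4 peaks all lie in the 335 kb intron 2, and Epha4 has no TKO ESC or WT EB peak.

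Erc1 had the most regions on exons of the 4 genes. The midpoint fell within a coding transcript's exon in 6 of its 14 regions, and 8 of the 14 overlapped such an exon by at least 1 base, against 1 of 13 in Dab1, 0 of 17 in Cdh4 and 1 of 4 in Epha4. In the reference transcript Erc1-202 these included exons 4, 7, 11, 13 and 15, and region 10 lay on an exon that another coding transcript carries. Over the 4 genes, 40 of the 48 regions were intronic, beside 68.0% of all 18820 regions in coding genes. The genes themselves are 95.7% to 99.4% intron by length, so introns took up most of the sequence in which a peak could fall.

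Most regions were seen once. A peak in only 1 library was all there was in 28 of the 48 regions, against 54.2% of the regions of all coding genes. Another 7 regions had peaks in 2 libraries, 10 had peaks in 3 to 7 libraries, and 3 had peaks in 9, 10 and 11 libraries. Those 3 were Cdh4 regions 3 and 2 and Dab1 region 12, the regions of GAT and GGT triplets and of the 15-nt repeat printed above. No region had a peak in all 13 libraries.

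**Figure D2:**
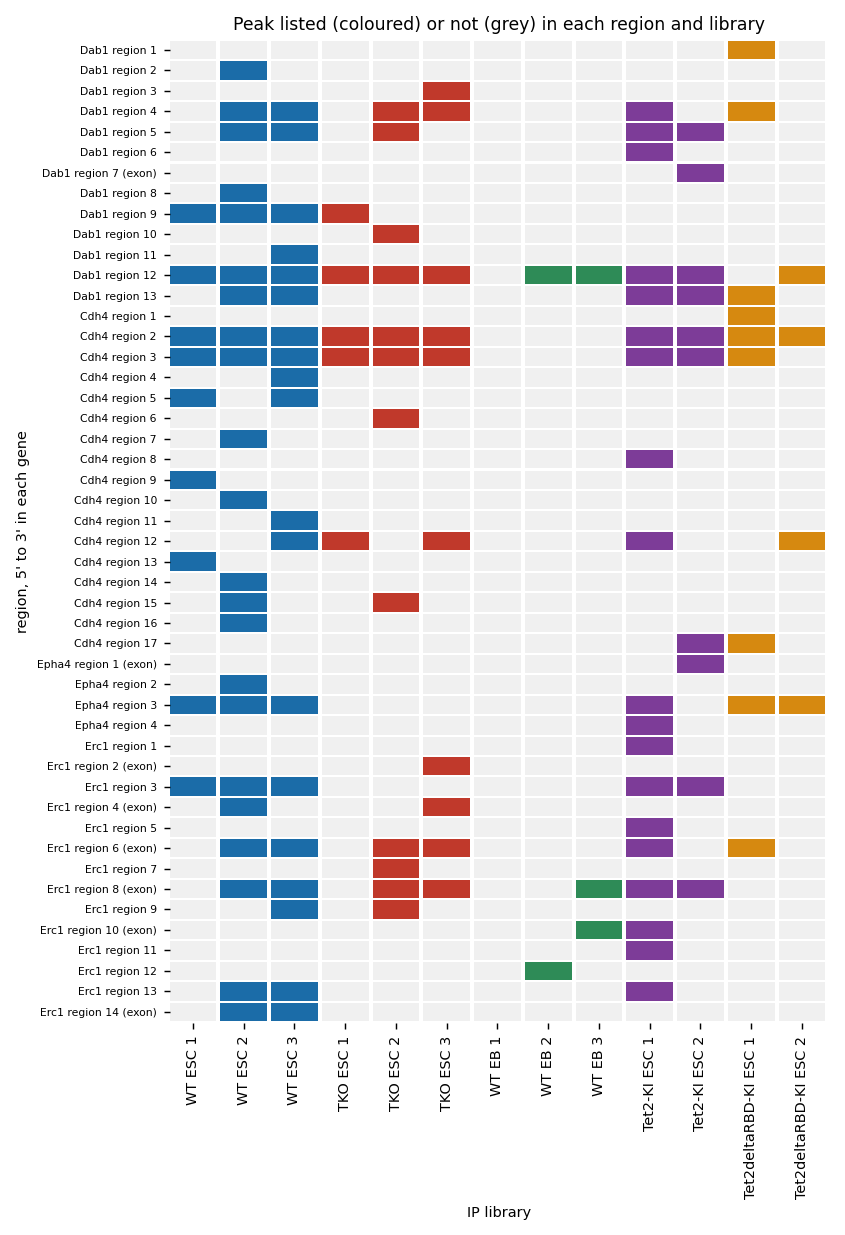
Rows are the 48 regions from 5′ to 3′ in each gene and columns the 13 IP libraries, and a coloured cell means that the library listed at least 1 peak in the region. Filled rows across groups are seen at Dab1 region 12 and Cdh4 regions 2 and 3, while 28 rows have a single coloured cell.

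WT ESC libraries listed 9, 24 and 20 peaks in the 4 genes, in replicates 1 to 3. TKO ESC libraries listed 6, 14 and 10, and WT EB libraries 0, 2 and 3. The Tet2-KI ESC lists held 19 and 11 such peaks and the Tet2deltaRBD-KI ESC lists 9 and 4. The ranges of WT ESC and TKO ESC overlapped, and both were above the WT EB range. Since the lists differed in length, the same counts were taken per 1000 peaks of each list. WT ESC then had 2.83 ± 0.696 (SD, n = 3) and TKO ESC had 4.18 ± 1.78 (SD, n = 3), where TKO ESC replicate 1, with 964 peaks in all, gave 6.22. WT EB gave 0, 1.09 and 0.849 per 1000 peaks, below every other library. In the knock-in groups the values were 1.83 and 1.90 for Tet2-KI ESC and 1.94 and 1.21 for Tet2deltaRBD-KI ESC, which overlapped. Within the 1703 libraries the values were 3.37 and 3.08 in WT ESC, 3.24 and 3.07 in TKO ESC, and 1.09 and 0.849 in WT EB.

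**Figure D3:**
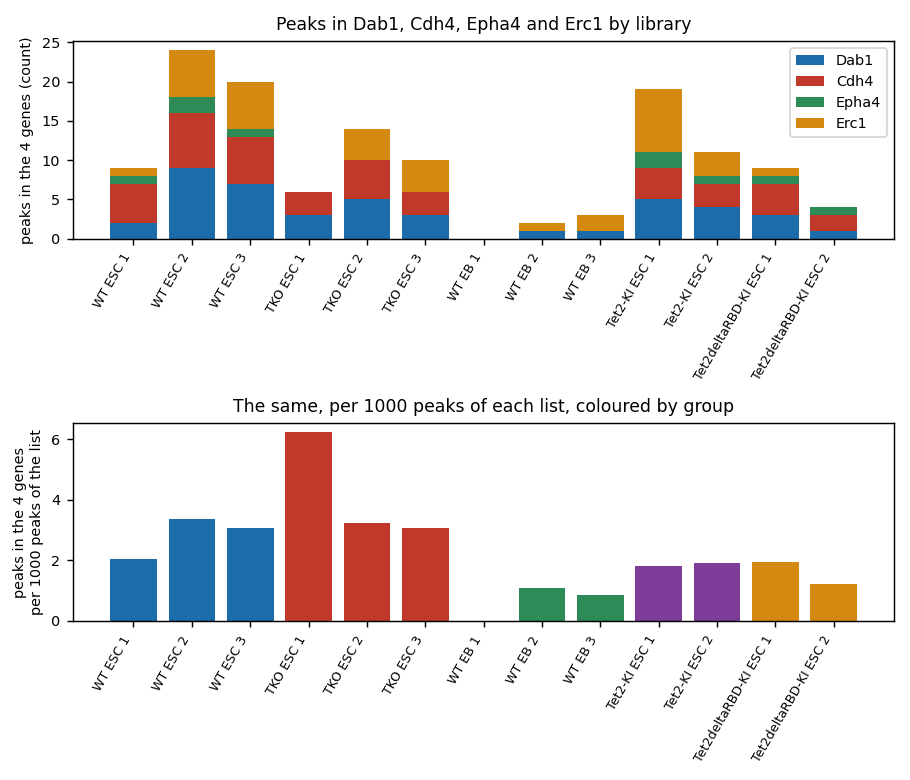
Bars in the upper panel count the peaks of each IP library in the 4 genes, stacked by gene, and bars in the lower panel give their sum per 1000 peaks of that library's list, coloured by group. WT EB has 0, 2 and 3 peaks, and TKO ESC replicate 1 has the highest value per 1000 peaks, 6.22, from 6 peaks.

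By gene, Dab1 had 2, 9 and 7 peaks in WT ESC replicates 1 to 3, 3, 5 and 3 in TKO ESC, and 0, 1 and 1 in WT EB. Cdh4 had 5, 7 and 6 in WT ESC, 3, 5 and 3 in TKO ESC, and 0 in each WT EB library. Epha4 had 1, 2 and 1 in WT ESC and 0 in every TKO ESC and WT EB library. Erc1 had 1, 6 and 6 in WT ESC, 0, 4 and 4 in TKO ESC, and 0, 1 and 2 in WT EB. In the knock-in groups Erc1 had 8 and 3 peaks in Tet2-KI ESC and 1 and 0 in Tet2deltaRBD-KI ESC. Dab1 had 5 and 4 against 3 and 1 there, Cdh4 had 4 and 3 against 4 and 2, and Epha4 had 2 and 1 against 1 and 1.

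A peak in at least 1 WT ESC library was listed in 30 of the 48 regions, or 62.5%, beside 44.7% of the regions in all coding genes. For TKO ESC this was 17 regions, or 35.4%, beside 26.5%, and for WT EB it was 4 regions, or 8.33%, beside 19.9%. Tet2-KI ESC had a peak in 22 regions, or 45.8%, beside 54.8%, and Tet2deltaRBD-KI ESC in 11, or 22.9%, beside 29.7%. Because the genes were chosen on these lists, the differences from all coding genes are shown as they stand and nothing is read from them.

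In WT ESC, 6 regions had a peak in all 3 libraries: Dab1 regions 9 and 12, Cdh4 regions 2 and 3, Epha4 region 3 and Erc1 region 3. Epha4 region 3 and Erc1 region 3 were the 2 of these 6 without a peak in TKO ESC. Over the whole series 32.2% of the regions replicated in WT ESC had none, so 2 of 6 is near the background. Within the 1703 libraries 13 member regions had a peak in both WT ESC replicates and 6 of them had none in TKO ESC, beside 44.3% of all such regions. Those 6 were Dab1 regions 9 and 13, Epha4 region 3 and Erc1 regions 3, 13 and 14.

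Against WT EB, 5 of the 6 regions had no peak in any WT EB library, Dab1 region 12 being the exception. The background was 54.9% of the regions replicated in WT ESC. Within the 1703 libraries 11 of 13 regions had no WT EB peak, beside 63.9% of all such regions, and Erc1 region 8 was the second exception. These shares lie above the background, over 6 and 13 regions in genes that had been chosen with these lists in view.

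Epha4 region 3 (chr1:77464727-77464970, intron 3 of Epha4-201, 23253 bp from the nearest exon of a coding transcript) was the one replicated region of the ephrin receptor gene. Its fold enrichment in WT ESC was 10.2, 14.7 and 14.0 in replicates 1 to 3, a mean of 12.9 ± 2.40 (SD, n = 3). These values ranked 461 of 4395, 212 of 7113 and 229 of 6499 in their lists. TKO ESC and WT EB listed no peak there. Tet2-KI ESC replicate 1 and both Tet2deltaRBD-KI ESC libraries did. The other 3 Epha4 regions each had a peak in 1 library: region 1 on exon 3 and region 4 on an AC repeat of 51 nt in Tet2-KI ESC, and region 2 in WT ESC replicate 2, at 5.99.

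Erc1 region 3 (chr6:119712868-119713079) lay in intron 6 of Erc1-202, 1644 bp from the nearest exon. Fold enrichment in WT ESC was 11.0, 18.8 and 13.2, a mean of 14.3 ± 4.05 (SD, n = 3). Like the Epha4 region it was listed neither in TKO ESC nor in WT EB. Both Tet2-KI ESC libraries listed a peak in it and neither Tet2deltaRBD-KI ESC library did.

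Erc1 region 8 (chr6:119672078-119672439) covered exon 13 of Erc1-202 and followed another pattern. It had a peak in 7 libraries, and no replicate 1 of the first 3 groups was among them. Fold enrichment was 4.73 and 4.21 in WT ESC replicates 2 and 3, 15.1 and 5.05 in TKO ESC replicates 2 and 3, and 7.58 in WT EB replicate 3. The TKO ESC values were both above the WT ESC values, with a mean of 10.1 ± 7.11 against 4.47 ± 0.369 (SD, n = 2 each), and the spread in TKO ESC exceeded the difference. The medians of the whole lists were also higher, 7.28 and 6.52 in TKO ESC replicates 2 and 3 against 5.56 and 5.55 in WT ESC. Of the WT ESC and TKO ESC values only that of TKO ESC replicate 2 lay above its list median. Both Tet2-KI ESC libraries and no Tet2deltaRBD-KI ESC library had a peak in region 8. Region 6, on exon 11, had values of 5.05 and 12.2 in WT ESC and 10.6 and 4.63 in TKO ESC, which overlapped. It had a peak in replicate 1 of both knock-in groups, the one Erc1 region with a Tet2deltaRBD-KI ESC peak. Region 14, on exon 15, had 5.99 and 6.14 in WT ESC replicates 2 and 3 only. Region 13, in intron 14, had 8.98 and 6.14 in the same libraries and a peak in Tet2-KI ESC replicate 1.

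All 3 WT EB peaks of Erc1 fell on or beside exons. Region 8 held 1 of them, region 10 another at 4.92, and region 12, whose midpoint lay 16 bp outside an exon and which shared 84 bases with it, the last at 7.94. The other 2 WT EB peaks of the 4 genes were both in Dab1 region 12.

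Dab1 region 12 (chr4:104321276-104321813, intron 4 of Dab1-202, 29763 bp from the nearest exon) was the widest region, at 538 bp with 15 peaks from 11 libraries. It is built of a 15-nt unit: in the printed window 95.7% of bases equal the base 15 nt before, the commonest unit occurs 8 times, and the repeat, followed in windows of 99 nt with at least 70% of such bases, reaches from 104321300 to 104321712. The midpoints of its peaks ran from 104321375 to 104321713, with 3 of the 15 inside the printed window. Fold enrichment was 7.02, 11.3 and 7.87 in WT ESC, a mean of 8.72 ± 2.25, and 4.10, 15.4 and 14.5 in TKO ESC, a mean of 11.3 ± 6.29 (SD, n = 3 each). The groups overlapped, with TKO ESC replicate 1 the lowest of all and replicates 2 and 3 the highest. WT EB replicates 2 and 3 had 6.19 and 4.12, below every WT ESC value. Both Tet2-KI ESC libraries and Tet2deltaRBD-KI ESC replicate 2 also listed it.

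Dab1 region 9 (chr4:104179242-104179481, intron 2) carries a perfect AG repeat of 51 nt. Fold enrichment was 11.6, 7.08 and 5.91 in WT ESC, a mean of 8.18 ± 2.98 (SD, n = 3), and 3.89 in TKO ESC replicate 1, the only TKO ESC library with a peak there. No WT EB or knock-in library listed it. Dab1 region 5 (chr4:104077378-104077592, intron 1) had 9.56 and 7.01 in WT ESC replicates 2 and 3, 7.82 in TKO ESC replicate 2, and a peak in both Tet2-KI ESC libraries but in no Tet2deltaRBD-KI ESC library. Next to it, region 4 had 7.31 and 9.61 in WT ESC and 5.26 and 10.1 in TKO ESC, replicates 2 and 3, and the groups overlapped. Dab1 region 13 (chr4:104402510-104402731, intron 14) had 12.1 and 7.89 in WT ESC replicates 2 and 3, was listed neither in TKO ESC nor in WT EB, and had peaks in both Tet2-KI ESC libraries and Tet2deltaRBD-KI ESC replicate 1.

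Cdh4 region 2 (chr2:179240712-179240952, intron 2, 61316 bp from the nearest exon) held the highest fold enrichment in the 4 genes. It was 39.7, 9.47 and 20.5 in WT ESC and 20.7, 38.9 and 25.5 in TKO ESC. The first of these values was the highest of its whole list, rank 1 of 4395, while the WT ESC values of replicates 2 and 3 ranked 827 of 7113 and 56 of 6499. The TKO ESC values ranked 6 of 964, 14 of 4323 and 33 of 3262. WT ESC averaged 23.2 ± 15.3 (SD, n = 3) and TKO ESC averaged 28.3 ± 9.43 (SD, n = 3), a difference smaller than either spread. Without WT ESC replicate 1 the WT ESC mean was 14.98. All 4 knock-in libraries had a peak there and no WT EB library did.

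Cdh4 region 3 (chr2:179240956-179241410) follows directly. Its fold enrichment was 12.6, 17.3 and 17.4 in WT ESC, a mean of 15.8 ± 2.77, and 9.62, 9.85 and 17.7 in TKO ESC, a mean of 12.4 ± 4.61 (SD, n = 3 each), so these groups overlapped too. Both Tet2-KI ESC libraries and Tet2deltaRBD-KI ESC replicate 1 had a peak in it. Of the other named Cdh4 regions, region 12, with a GGT repeat of 20 nt, had 6.14 in WT ESC replicate 3 and 5.68 and 6.27 in TKO ESC replicates 1 and 3, region 5 had 6.24 and 6.04 in WT ESC replicates 1 and 3, and region 15, with an ATGG repeat of 43 nt, had 5.20 in WT ESC replicate 2 and 13.3 in TKO ESC replicate 2. Region 17 had a peak in 1 library of each knock-in group only.

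Among the knock-in groups 7 member regions had a peak in both Tet2-KI ESC libraries: Dab1 regions 5, 12 and 13, Cdh4 regions 2 and 3, and Erc1 regions 3 and 8. Of these 7, Dab1 region 5 and Erc1 regions 3 and 8 had no peak in either Tet2deltaRBD-KI ESC library, beside 35.6% of all regions replicated in Tet2-KI ESC. The count rested on which libraries were asked for: it was 11 of 19 without Tet2-KI ESC replicate 2, beside 69.3% of all such regions, and 5 of 10 without replicate 1, beside 55.4%. Over so few regions nothing is read from these shares. The Tet2deltaRBD-KI ESC lists were the shorter of the 2 groups, with 4639 and 3318 peaks against 10383 and 5781, and the part of list length in this count was not tested.

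Perfect tandem repeats were counted where a unit of up to 4 nt ran on for 18 nt or more, or 20 nt for the longest units, and were found in 6 of the 48 regions: AG in Dab1 region 9, GGT, CT and ATGG in Cdh4 regions 12, 14 and 15, AC in Epha4 region 4, and a T run of 18 nt in Erc1 region 6. Of the 40 intronic regions 5 held one, beside 13.1% of all intronic regions of coding genes. The 3 regions with the most libraries were not among them. The unit of Dab1 region 12 is longer than those counted, and in Cdh4 regions 2 and 3 the best period, of 3 nt, matched 55.8% and 46.2% of bases. Counting the letters GAT and GGT on the gene strand, without their reverse complements, Cdh4 region 2 held 15 and 13 of them in 200 bases and region 3 held 22 and 4, or 18 and 4 in the window around its peaks. The median over 12641 intronic regions was 6 in all, and 95.2% held at least 1. These triplets were picked from the Cdh4 windows themselves, so how far the windows stand from the median is no result. This describes the letters of these windows and names no binding site. How repeats of this kind affected read mapping or peak calling was not tested.

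Cytosine, the base that carries 5hmC, made up 15.5% of the bases of the member regions on the gene strand (median of 48, range 2.00% to 60.5%), beside 16.5% over all intronic regions. In the most widely shared regions it was lower, 4.5% in Dab1 region 12, 8.5% in Cdh4 region 2 and 7.5% in Cdh4 region 3, which had 9.5% in the window around its peaks. Over the whole genes C made up 19.9% of bases in Erc1 to 24.9% in Cdh4. Epha4 region 3 had 19.5% C and Erc1 region 3 had 23.5%. The highest share was 60.5%, in Cdh4 region 16, which had a peak in WT ESC replicate 2 only, at 5.20. The lowest was 2.00%, in Cdh4 region 4, with a peak in WT ESC replicate 3 only, so regions seen in 1 library held both ends of the range. C and T together made up 41.0% (median of 48), beside 41.5% over all intronic regions.

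**Figure D4:**
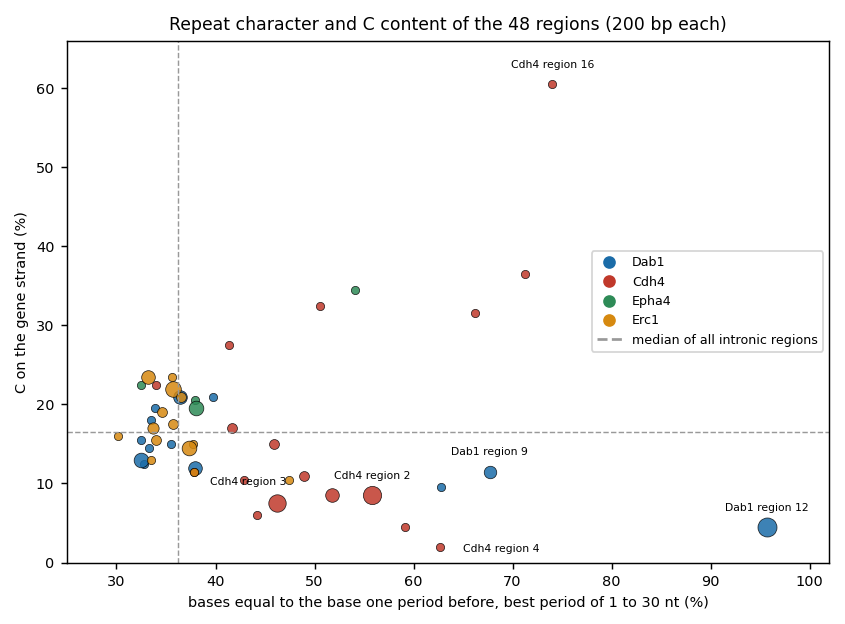
Each point is 1 of the 48 regions, with the percentage of bases equal to the base one period before (best period of 1 to 30 nt) on the x axis and the percentage of C on the gene strand on the y axis, both over 200 bases. Larger points have peaks in more libraries, and dashed lines are the medians of all intronic regions, 36.2% and 16.5%. Dab1 region 12 lies far to the right at 95.7% with 4.5% C.

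Other genes of the same pathways also held regions. Of Reelin signalling genes 13 of 15 had at least 1 region, of cadherins and catenins 15 of 26, of Eph receptors and ephrins 10 of 23, of ELKS partners at the active zone and in vesicle capture 14 of 20, and of other axon guidance genes 18 of 34, beside 32.2% of all 22380 coding genes and 67.3% of those of at least 100 kb. Among list genes of at least 100 kb the counts were 5 of 6, 12 of 16, 4 of 8, 9 of 10 and 14 of 24. A region with a peak in all 3 WT ESC libraries was present in 1, 3, 1, 2 and 4 genes of these lists, beside 3.76% of all coding genes and 13.5% of those of at least 100 kb. A region replicated in Tet2-KI ESC was present in 2, 4, 2, 3 and 3 genes, beside 8.15% and 19.4%, and one replicated in Tet2deltaRBD-KI ESC in 1, 0, 1, 0 and 1, beside 4.72% and 9.45%. No gene of the lists had a region replicated in TKO ESC, where the shares were 1.01% and 2.71%, or in WT EB, where they were 0.411% and 0.791%, so such regions were rare in any gene. In Itsn1, an endocytic scaffold, the most shared region had 13.2 ± 4.50 in WT ESC (SD, n = 3), and in Unc5c, a netrin receptor, it had 11.2 ± 3.20 (SD, n = 3). In Cdh13, which encodes a cadherin anchored to the membrane by a lipid, it had 6.18 ± 2.53, and in Erc2, the close relative of Erc1, it had 5.66 ± 0.751 (SD, n = 3 each). Ephb2 had the most regions of any gene in these lists, 14, and 1 of them was replicated in WT ESC.

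The coding genes whose number of regions per library was most like that of each member were found by the mean absolute difference over the 13 libraries, which share list length as well as condition. For Dab1 these were Plcb4, 2610528E23Rik and Ppp6r3, each at 0.769 regions per library, and for Cdh4 they were Rnf165 at 0.846 and Plcb4 at 0.923. Epha4 was matched exactly by Qrich1, at 0, and nearly by Zfp710 and Gcfc1, at 0.0769, since all have few regions. For Erc1 they were Zfp148 at 0.769 and Rabgap1 and Apex2 at 1.00.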

How the data were processed

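RNA 5hmC was measured by hMeRIP-seq in 13 IP libraries with 13 inputs, and the inputs entered here only through the peak calls. The authors filtered out reads of low complexity and those of rRNA and tRNA, trimmed the others with Trimmomatic, mapped with STAR to mm9 and called peaks of each IP against its input with MACS2 (q below 0.05). The deposited lists hold positions of 200 bp intervals around summits. In 9 libraries they also hold the fold enrichment, the IP signal over the background that the authors' peak caller estimated with the input. Depth is unknown, so intervals on counts of reads could not be given. Fold enrichment takes few distinct values: in WT ESC replicate 2, 9.32% of peaks share 1 value.

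With Python 3.11.15 and numpy 2.4.6, the intervals of all 13 lists were merged where they overlapped by at least 1 bp, and placed on NCBIM37 (the assembly of mm9) with GENCODE M1. No interval passed a chromosome end and 99.7% lay on reference chromosomes. A region was exonic when its midpoint fell within any exon of the coding transcripts; the reference transcript was the coding one with most exons. Fold enrichment of a region is its highest peak in a library. Groups and replicates came from the sample titles. The code was tested on simulated data with planted sites and repeats, all of which it recovered.

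Members and gene lists were chosen with earlier results of these data known, so no test was run. Named regions were those with a peak in every replicate of a group, then those in most libraries up to 6 per gene. Rbx2, of the Reelin list, was not matched in the annotation. For each member the 3 coding genes of most similar region counts were sought, and 1 of them is not reported here. The alternatives are given after the report.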

Additional observations from a re-analysis of the deposited data

How the results depend on the processing

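Of the 48 regions, 45 to 52 were counted under the other merging distances, and any overlap with a gene span gave 48 again. With fold enrichment of at least 5 there were 44. That limit was set on the 9 lists with such values only, and every knock-in peak was kept. The regions replicated in WT ESC numbered 6, of which 2 lacked a TKO ESC peak and 5 a WT EB peak. These counts became 3, 2 and 3 when the 9 lists were shortened to 498 peaks, 14, 6 and 12 when 2 of 3 replicates were enough, and 13, 6 and 11 in the 1703 libraries. With gaps of up to 200 bp joined, which makes Cdh4 regions 2 and 3 a single region, they were 5, 2 and 4. The share over all regions was not taken with joined gaps. Over the whole series the shares without a TKO ESC or WT EB peak were 21.5% and 37.6% with shortened lists, and 49.7% and 67.8% when 2 of 3 replicates were enough. Leaving out WT ESC replicates in turn gave 6 to 13, 2 to 5 and 5 to 11, the highest counts each coming without WT ESC replicate 1, which had the shortest list of its group, beside 41.5% and 60.7% of all such regions. The 7 regions replicated in Tet2-KI ESC became 6 when gaps of up to 200 bp were joined, 10 without replicate 1 and 19 without replicate 2, where 1 library stood for the group. The 3 of them without a Tet2deltaRBD-KI ESC peak became 2 with joined gaps. They became 11 without Tet2-KI ESC replicate 2 and 5 without replicate 1, beside 69.3% and 55.4% of all such regions. Leaving out Tet2deltaRBD-KI ESC replicate 1 gave 5 and leaving out its replicate 2 gave 4, beside 66.9% and 40.1% of all such regions.

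Repeats were found in 21 regions with runs of at least 12 nt, in 4 with at least 30 nt and in 6 with units of up to 6 nt. Of the 40 intronic regions these were 19, 4 and 5, beside 26.3%, 6.56% and 16.3% of all intronic regions. By a definition chosen after seeing the data, in which at least 70% of bases equal the base 1 to 30 nt before, 3 regions held a repeat, beside 5.80% of all intronic regions. In a window centred on the peaks of Cdh4 region 3, also chosen after seeing the data, GAT and GGT went from 26 to 22 and C from 7.5% to 9.5%. Intronic regions numbered 38 when any overlap with an exon counted and 40 with all transcripts. The median WT ESC fold enrichment over the 6 regions with all 3 values was 13.6, and 12.1 to 14.6 when a replicate was left out, with the lowest value without WT ESC replicate 2. Among single regions, the WT ESC mean of Cdh4 region 2 went from 23.2 to 14.98 without WT ESC replicate 1. Unknown depth, unequal list lengths and 2 or 3 libraries a group limit every count of missing peaks. Where the cause of a change is not stated it was not tested. No paired test was run, since no result here comes from a test, and the within-1703 values stand beside the counts.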
